A study of Mus musculus with 11 samples.

Results

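The 10 genes described here carry the MHC class II presentation pathway of mouse: the classical chain genes H2-Aa, H2-Ab1 and H2-Eb1, the invariant chain gene Cd74, the peptide exchange genes H2-DMa, H2-DMb1 and H2-DMb2, the genes of their modulator, H2-Oa and H2-Ob, and Ciita. They were chosen by gene symbol, and each symbol was found once among the 23282 entries of the count tables. The tables come from 11 RNA sequencing libraries of intestinal macrophages from the colon, labelled as CD45+ CD11b+ Ly6G- Ly6C- MHCII+ CD64+ cells. The groups were the strain Csf1r-EP4-/-, here called KO, at day 0 (3 libraries) and day 39 (3), and WT at day 0 (2) and day 39 (3). The labels give all mice 2.5% dextran sodium sulphate (DSS), which damages the colon lining, in the drinking water over 5 days. The titles count the days as DSS day 0 and DSS day 39, and comparisons of these days do not separate time from DSS. Titles were followed where file names differ: libraries titled day 39 have files named day 35, and replicate 2 of WT at day 0 has a file named 3. The labels do not say how the strain was made, which exons of the EP4 gene Ptger4 it lacks, the age of the mice, or whether libraries came from separate or pooled mice, so p-values measure the spread between these libraries, which may be technical.

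Class II molecules are pairs of an alpha and a beta chain that display peptides from endosomes to CD4 T cells. H2-Aa and H2-Ab1 encode the pair I-A, and H2-Eb1 encodes the beta chain of I-E. The invariant chain escorts new pairs to endosomes and blocks their groove until it is cut away. H2-DM (H2-DMa with an H2-DMb chain) then exchanges its last fragment for peptides, and H2-O holds H2-DM back. Ciita is the coactivator that switches these genes on through an assembly of RFX, CREB and NF-Y factors on their promoters. Macrophages of the healthy colon are known for high class II, and the gate of this sort used it. A high level of class II genes is therefore not read here as a result, and the part of the gate in it was not tested.

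The libraries held 4003299 to 14207919 counts and 3818 to 7450 genes with at least 1 count; the deepest was day 0 KO replicate 3. Ptger4 did not follow the strain labels. It had 1350, 0 and 890 counts in the libraries labelled day 0 KO, 0 and 0 in day 0 WT, 1, 8 and 4501 in day 39 KO, and 1481, 152 and 7286 in day 39 WT. Reads of this kit lie near the 3′ end, and a transcript that lacks only an internal exon would still be counted, so Ptger4 cannot check the labels. Directions between KO and WT below rest on the labels alone. Of the genes of the sort markers, Ptprc (CD45) and Itgam (CD11b) were above 3 counts in 8 of 11 libraries each and Fcgr1 (CD64) in 6 of 11. Csf1r, a macrophage receptor gene that the sort did not use, had 1329 to 12197 counts and was detected in all 11.

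Promoters are shown first because Ciita acts through short promoter boxes of class II genes. These are an X box bound by RFX, an X2 box bound by CREB and a Y box bound by NF-Y. The Y box is CCAAT on one strand and ATTGG on the other. RefSeq promoter windows of 300 bases (250 before to 50 after the start, build GRCm38.p6) were matched for 7 of the 10 members; H2-Ab1, Cd74 and Ciita had no match. The stretch from -140 to -11 is printed for 6 members, from genes with counts in every library to genes almost without counts. Capitals mark CCAAT or ATTGG, the RFX site core GCAAC, the CREB site core TGACG (with its overlapping reverse complement CGTCA) and, on the printed strand, ATGATG, which was added after the sequences were seen.
H2-Aa, chr17:34287834-34287963, minus strand: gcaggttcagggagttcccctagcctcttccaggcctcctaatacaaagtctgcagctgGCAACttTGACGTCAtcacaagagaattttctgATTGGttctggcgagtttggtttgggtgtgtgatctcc
H2-Eb1, chr17:34305727-34305856, plus strand: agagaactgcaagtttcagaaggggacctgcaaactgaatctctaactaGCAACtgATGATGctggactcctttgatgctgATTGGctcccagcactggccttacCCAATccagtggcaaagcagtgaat
H2-DMb1, chr17:34153051-34153180, plus strand: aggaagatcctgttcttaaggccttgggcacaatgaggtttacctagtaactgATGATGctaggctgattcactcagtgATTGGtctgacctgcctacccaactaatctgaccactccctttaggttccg
H2-DMb2, chr17:34145109-34145238, plus strand: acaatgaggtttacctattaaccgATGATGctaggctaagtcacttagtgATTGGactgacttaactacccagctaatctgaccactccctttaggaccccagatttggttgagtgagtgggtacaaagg
H2-Oa, chr17:34092239-34092368, plus strand: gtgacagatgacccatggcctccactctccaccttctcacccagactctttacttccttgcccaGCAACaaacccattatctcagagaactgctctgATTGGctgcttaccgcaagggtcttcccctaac
H2-Ob, chr17:34238765-34238894, plus strand: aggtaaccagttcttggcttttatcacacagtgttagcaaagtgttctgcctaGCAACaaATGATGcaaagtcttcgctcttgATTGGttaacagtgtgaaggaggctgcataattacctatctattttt

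The 6 printed members are those matched except H2-DMa, and their windows all held ATTGG downstream of GCAAC or ATGATG. Because ATGATG was chosen after the sequences were seen, this count is not a test. No share over all windows was computed for ATGATG followed by ATTGG. The gap from GCAAC to ATTGG was 28 bases in H2-Aa, 27 in H2-Eb1, 28 in H2-Oa and 25 in H2-Ob. In H2-DMb1 and H2-DMb2, where no GCAAC stood at such a distance, 20 bases lay between ATGATG and ATTGG. This gap was 19 bases in H2-Eb1 and 17 in H2-Ob, where ATGATG follows GCAAC closely without overlap. Searched on both strands of 32851 RefSeq windows of the same length, CCAAT was found in 37.4%, GCAAC in 35.2%, TGACG in 20.8% and ATGATG in 11.2%, and GCAAC followed by ATTGG after 20 to 45 bases in 1.16%. H2-DMa has 2 windows, and neither held that arrangement. A match of letters is a description of the window and not a bound site. H2-Aa and H2-Oa share the same gap; H2-Aa was counted in every library (26244 or more), and H2-Oa in 1.

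The classical chain genes and Cd74 were abundant in every library. In units of CPM (counts per 1000000, scaled between libraries by TMM over tested genes), H2-Aa, the I-A alpha chain, was at 13304 and 13081 in day 0 WT replicates 1 and 2, at 21826, 3374 and 4385 in day 0 KO replicates 1, 2 and 3, at 9327, 6517 and 11428 in day 39 WT, and at 7656, 8117 and 9917 in day 39 KO. Its counts ran from 26244 to 135820. One library, day 0 KO replicate 1, stood above all others, and the other 2 libraries of its group stood below all others, so that the 2 WT libraries lay inside the range of KO at day 0.

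H2-Ab1, the I-A beta chain, was at 6815 and 9811 CPM in day 0 WT, 11337, 3879 and 2433 in day 0 KO, 6878, 5000 and 7004 in day 39 WT, and 3311, 5731 and 6549 in day 39 KO. H2-Eb1, the I-E beta chain, was at 8929 and 10053 CPM in day 0 WT, 14513, 4389 and 2609 in day 0 KO, 9637, 6248 and 9910 in day 39 WT, and 7555, 7906 and 6257 in day 39 KO. Cd74 was at 5359 and 5921 CPM in day 0 WT, 7137, 4191 and 2241 in day 0 KO, 3123, 5164 and 6588 in day 39 WT, and 2253, 5215 and 1914 in day 39 KO. Day 0 KO replicate 1 was the highest library for all 4 genes. Day 0 KO replicates 2 and 3 were lower than both day 0 WT libraries for all 4 genes, while the groups of each comparison below overlapped for H2-Ab1, H2-Eb1 and Cd74.

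**Figure D1:**
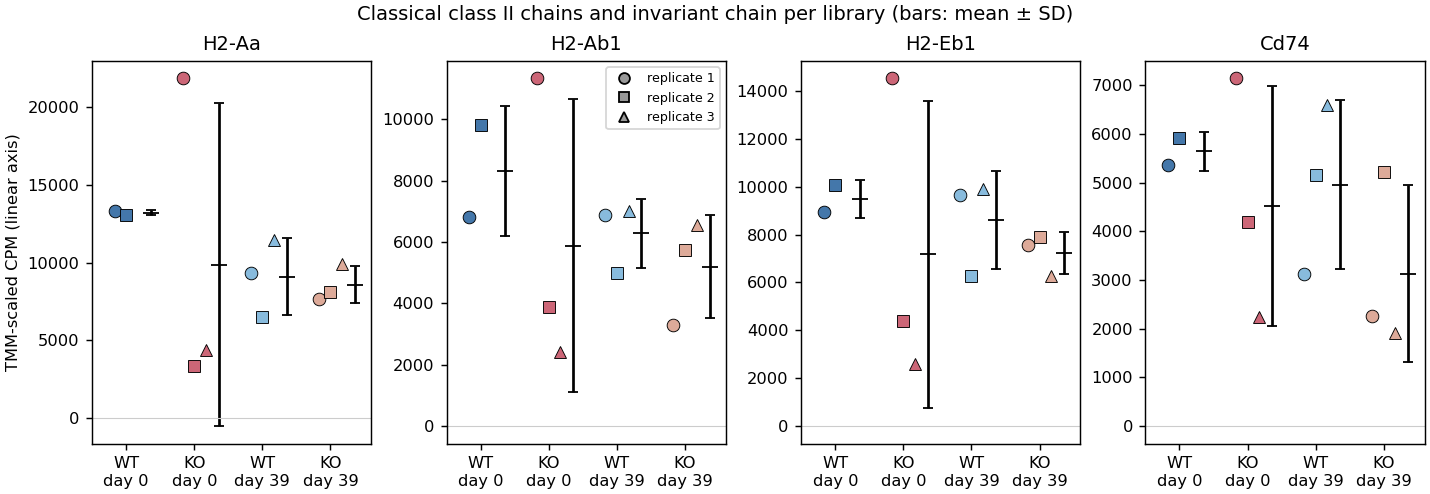
TMM-scaled CPM (linear axis) of H2-Aa, H2-Ab1, H2-Eb1 and Cd74 in each of the 11 libraries by group; symbols mark the replicate number, and the bar beside each group is the mean with 1 SD. Day 0 KO replicate 1 is the highest point in each panel (21826 CPM for H2-Aa), and day 0 KO replicates 2 and 3 lie below both day 0 WT libraries.

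These 4 genes held 89.5% to 99.3% of the members' counts in a library. Summed over the 10 members, the level was 39509 CPM ± 5534 (SD, n = 2) in day 0 WT, 28111 CPM ± 24476 (n = 3) in day 0 KO, 29672 CPM ± 5880 (n = 3) in day 39 WT and 24937 CPM ± 3408 (n = 3) in day 39 KO. As a share of all counts of a library, the members took from 1.30% (day 0 KO replicate 3) to 5.85% (day 0 KO replicate 1). The spread in day 0 KO was thus as wide as that of the whole series, because its 3 libraries included both ends of it.

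Each of the 4 genes had at least 5000 counts in every library, which held for 16 of the 6987 genes tested. More than 3 counts in every library were found for 5 members (these 4 and H2-DMa) and for 6.6% of tested genes. The SD of log2(CPM + 1) within groups was 0.82 for H2-Aa, 0.70 for H2-Ab1, 0.72 for H2-Eb1 and 0.68 for Cd74. The median of that SD was 0.73 over the 100 genes with at least 1000 counts in every library and 3.04 over all tested genes.

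The proportions of the 3 chain genes also varied between libraries. The count ratio of H2-Eb1 to H2-Ab1 ran from 0.955 to 2.28, with a median of 1.28, and that of H2-Aa to H2-Ab1 from 0.870 to 2.31, with a median of 1.51. The highest value of both came from day 39 KO replicate 1. For Cd74 the ratio to H2-Ab1 ran from 0.292 in day 39 KO replicate 3 to 1.08 in day 0 KO replicate 2. These ratios describe how a pair moves between libraries and do not compare the abundance of its transcripts.

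The genes whose pattern was most like that of H2-Ab1 were found by Spearman correlation of CPM across the 11 libraries, among 354 genes with at least 10 counts in each library. H2-Eb1 came first (rho = 0.927) and H2-Aa second (0.882), followed by Igfbp4 (0.873), an insulin-like growth factor binding protein, Ptms (0.864), encoding parathymosin, and Ftl1 (0.864), the ferritin light chain. Cd74 was at rank 16 (0.736) and H2-DMa at rank 84 (0.382), and the median over the 354 genes was 0.0727. All points share library depth and cell composition, and the values are given as a description.

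The class II level was set beside the summed level of macrophage markers. Of 12 markers, 6 were above 3 counts in every library (C1qa, C1qb, C1qc, Csf1r, Cx3cr1 and Lyz2), Adgre1, Cd68, Itgam, Ptprc and Fcgr1 were in some, and Mertk was at 0 in all 11. The C1q genes made up 52.4% to 72.7% of the sum. The summed CPM was 16564 in day 0 KO replicate 1, 4584 and 3897 in replicates 2 and 3, 10788 and 8296 in day 0 WT, 5916 to 9361 in day 39 KO and 7204 to 10368 in day 39 WT. The 4 class II genes summed to between 11668 and 54813 CPM, and their ratio to the marker sum was between 2.88 and 4.68. The ratio was 3.25 ± 0.24 (SD, n = 3) in day 0 KO, 3.94 ± 1.06 (n = 2) in day 0 WT, 3.37 ± 0.44 (n = 3) in day 39 KO and 3.47 ± 0.35 (n = 3) in day 39 WT. Within day 0 KO the ratio ran from 2.99 to 3.45, while the class II sum itself ran from 11668 to 54813 CPM. Single markers did not all follow the sum: 9 of 12 were higher in CPM in day 0 KO replicate 1 than in replicates 2 and 3, and Itgam had 132 counts there against 2127 in replicate 2. With the C1q genes left out, a choice made after seeing the data, the ratio ran from 6.58 to 13.6 over the 11 libraries and was 11.5, 7.26 and 6.58 in day 0 KO replicates 1, 2 and 3, so its highest value was 2.07 times its lowest, against 1.63 times with all 12. In such bulk samples, fewer cells of a type and less RNA per cell cannot be told apart.

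**Figure D2:**
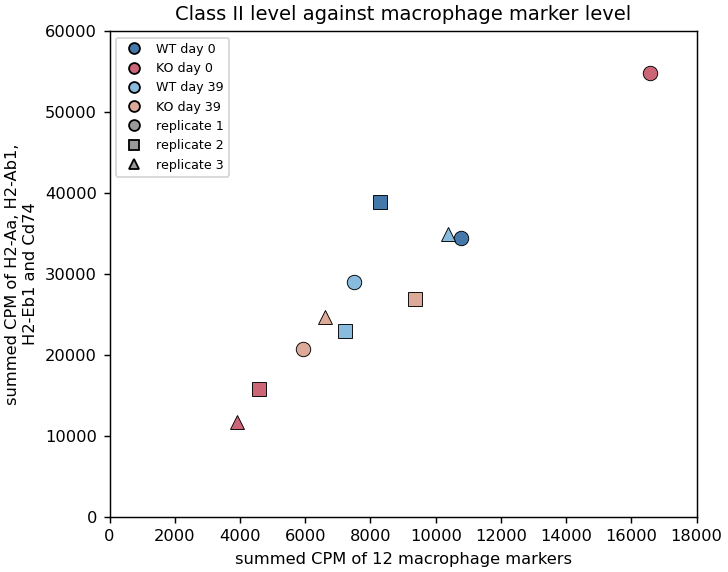
Summed CPM of H2-Aa, H2-Ab1, H2-Eb1 and Cd74 (vertical axis) against the summed CPM of 12 macrophage markers (horizontal axis), with 1 point per library, colour for the group and symbol for the replicate number. Day 0 KO replicate 1 lies at the upper right (16564 and 54813 CPM) and day 0 KO replicates 2 and 3 at the lower left, and the ratio of the axes is between 2.88 and 4.68.

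Markers of other cells moved too. The summed level of 6 stromal markers was 18479 and 20712 CPM in day 0 KO replicates 2 and 3, against 3035 to 15210 in the other 9 libraries, and that of 6 skeletal muscle markers was 18515 and 14943 CPM there, against 983 to 9617. Day 0 WT replicate 2 held the stromal value of 15210. Colon epithelial markers (15) summed to 74.7 to 1776 CPM at day 0 and 1858 to 11569 CPM at day 39. The part of these cells in the class II values was not tested. For the other cells that carry class II, the B cell gene Ms4a1 and the dendritic cell genes Flt3 and Zbtb46 were at 0 counts in all 11 libraries. Other genes of these lists were not: Itgax, which macrophages of the gut also express, had 707 to 3763 counts in 5 libraries, Batf3 had 1025 counts in day 0 KO replicate 1 and 622 in day 39 WT replicate 2, and Jchain had 1178 in day 0 WT replicate 1. Of the B cell list (9 genes) at most 1, and of the dendritic cell list (8 genes) at most 3, were above 3 counts in a library, with sums of 0 to 210 and 0.219 to 521 CPM. In day 0 KO, day 0 WT, day 39 KO and day 39 WT the highest B cell sums were 21.1, 210, 34.0 and 0.304 CPM, and the highest dendritic cell sums were 521, 133, 2.31 and 441 CPM. T cell markers (5 listed) summed to 0 to 416 CPM.

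For the peptide exchange genes H2-DMa and H2-DMb1 the KO and WT libraries did not overlap at day 39, in opposite directions, and neither gene passed the test given below. Of all tested genes, 3.99% were lower and 3.41% higher in KO without overlap at day 39. H2-DMa, the alpha chain, was detected in every library, with 333 and 1875 CPM in day 0 WT, 672, 116 and 287 in day 0 KO, 256, 391 and 290 in day 39 WT, and 405, 1098 and 655 in day 39 KO. At day 39 every KO library was above every WT library.

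H2-DMb1, the beta chain, had 3876 and 9611 counts in day 0 WT, 4987, 0 and 827 in day 0 KO, 1950, 1588 and 1122 in day 39 WT, and 0, 107 and 238 in day 39 KO. In CPM it was at 246 or more in all 5 WT libraries and at 801 in day 0 KO replicate 1, and at 68.6 or less in the other 5 KO libraries. At day 39 every KO library was below every WT library, the opposite order to H2-DMa. The count ratio of H2-DMb1 to H2-DMa was 2.08 and 1.21 in day 0 WT, 1.19, 0 and 0.188 in day 0 KO, 2.32, 0.747 and 0.847 in day 39 WT, and 0, 0.0193 and 0.105 in day 39 KO. A count of 0 in day 39 KO replicate 1, where 3 counts correspond to 0.776 CPM, came beside 1567 counts of H2-DMa in the same library.

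H2-DMb2, the second beta chain gene, had 11 counts in day 0 WT replicate 2, 12 and 18 in day 39 WT replicates 2 and 3, and 0 in the other 8 libraries. H2-DMb1 and H2-DMb2 are similar in sequence. Their GENCODE M21 transcripts were identical at 94.6% of 1255 aligned bases, with 318 gap positions besides, and their last 300 bases at 79.1% of 273, with 54 gap positions. The way the authors treated reads that fit both is not given in the sources used here, so the division of counts between them is uncertain.

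H2-O and Ciita were detected in only part of the libraries. H2-Oa, the H2-O alpha chain, had 115 counts in day 39 KO replicate 2 and 0 in the other 10 libraries. H2-Ob, its beta chain, had 634 and 0 counts in day 0 WT, 0 in all 3 libraries of day 0 KO, 4, 143 and 21 in day 39 WT, and 600, 1 and 0 in day 39 KO. The 2 genes were never above 3 counts in the same library. Counts of 0 allow up to 0.196 to 0.482 CPM of H2-Ob in the day 0 KO libraries; such limits cover counting error only, since PCR copies are not independent molecules.

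Ciita had 281 and 1760 counts in day 0 WT, 0, 0 and 1368 in day 0 KO, 0, 447 and 26 in day 39 WT, and 0, 1 and 9 in day 39 KO. It was above 3 counts in 4 of 5 WT libraries and 2 of 6 KO libraries. Day 0 KO replicate 1, the library with the highest level of the classical genes, had 0 Ciita counts, and day 0 KO replicate 3, among the lowest, had 1368. Ciita was thus above 3 counts in 6 libraries, and H2-Ob in 5, H2-DMb2 in 3 and H2-Oa in 1. Of all tested genes, 65.3% were above 3 counts in 5 or fewer.

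**Figure D3:**
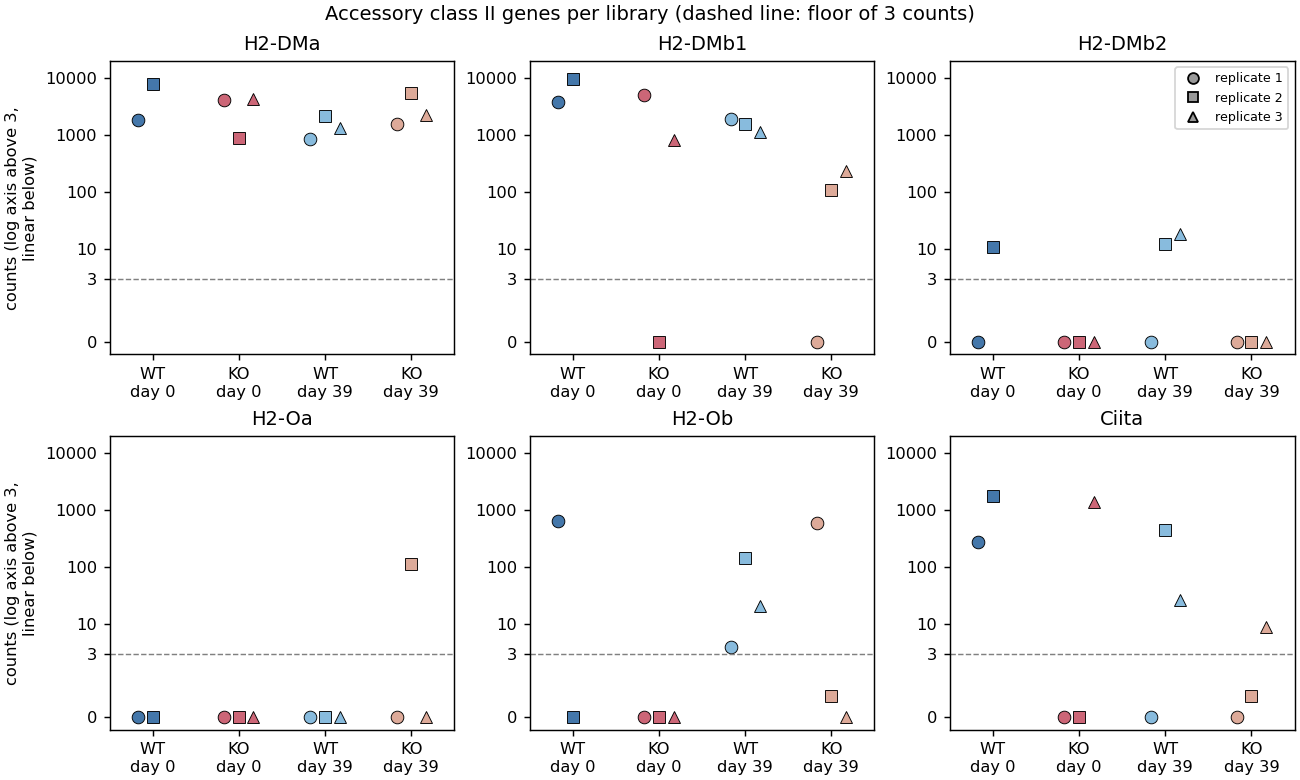
Counts of H2-DMa, H2-DMb1, H2-DMb2, H2-Oa, H2-Ob and Ciita in each library by group (log axis above 3 counts, linear below; the dashed line is the floor of 3 counts; symbols mark the replicate number). H2-DMa is present in every library, H2-DMb1 is at 0 to 238 counts in day 39 KO and 1122 to 1950 in day 39 WT, and the other 4 genes are at 0 in 4 or more libraries.

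Tests were run with edgeR over all genes; 9 of the 10 members passed its filter on low counts and H2-Oa did not. Fold changes are given only for the 6 members above 3 counts in at least 8 libraries. The comparison of KO with WT at day 0 asks whether the strain labels differ in class II expression at that time. No member passed (0 of 9; 0.0143% of all tested genes passed), 1 had an unadjusted p under 0.05 (H2-Ob; 7.99% of all tested genes), and no member's groups were free of overlap, against 5.25% of genes lower and 6.73% higher in KO without overlap. The edgeR log2 fold changes were -0.42 ± 0.47 (SE) for H2-Aa, -0.50 ± 0.56 for H2-Ab1, -0.40 ± 0.51 for H2-Eb1, -0.32 ± 0.66 for Cd74, -1.62 ± 1.73 for H2-DMa and -2.37 ± 2.01 for H2-DMb1, with edgeR adjusted p-values of 0.517 to 0.908. All 9 values were below 0, with a median of -1.62 (the same with genes at 0 in a group set to their bound). That median is the value of H2-DMa, and the 9 include H2-DMb2, H2-Ob and Ciita, whose folds are not given. Of all tested genes, 36% were below 0 and their median was 1.08. The latter was 0 without day 0 KO replicate 3 and 3.28 without day 0 WT replicate 1, so it is not a firm background.

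Without day 0 WT replicate 2, the log2 value was 0.25 for H2-DMa, -1.13 for H2-DMb1, -0.08 for H2-Ab1, -0.18 for H2-Eb1 and -0.11 for Cd74. For the abundant genes the comparison turned on day 0 KO replicate 1. Without day 0 KO replicate 1, H2-Aa was lower in KO at a log2 value of -1.77 ± 0.41 (SE; edgeR adjusted p = 0.0235; range over all alternatives 6.78e-21 to 1), and H2-Ab1 was at -1.40 ± 0.50, H2-Eb1 at -1.44 ± 0.44, Cd74 at -0.81 ± 0.59 and H2-DMb1 at -5.78 ± 2.75, none of which passed. Of the genes tested without this library, 0.0753% did. The 2 KO libraries that remain, replicates 2 and 3, are those with the highest stromal (18479 and 20712 CPM) and skeletal muscle (18515 and 14943 CPM) sums and the lowest macrophage sums (4584 and 3897 CPM), and the part of these in the H2-Aa call was not tested. Relative to the day 0 WT mean, H2-Aa was at 1.65 in replicate 1, 0.256 in replicate 2 and 0.332 in replicate 3. The test also mattered: limma-voom, with all 11 libraries, called 3 of 9 members lower in KO at day 0 (2.55% of all tested genes were called in either direction), H2-Aa (log2 fold change -1.47, limma-voom adjusted p = 6.78e-21), H2-Ab1 (-1.34, adjusted p = 3.87e-05; range over all alternatives 3.87e-05 to 1) and H2-Eb1 (-1.50, adjusted p = 2.20e-09; range 2.20e-09 to 1). DESeq2 called 0 of the 5 members for which it gave an adjusted p-value, against 30% of all genes with one. Here and in the other comparisons it gave none for H2-DMb1. Replicates 1 and 3 of day 0 KO are the libraries with 1350 and 890 Ptger4 counts.

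KO against WT at day 39 asks the same at the later time. By edgeR 0 of 9 members passed (0.0286% of all tested genes) and 0 had an unadjusted p under 0.05 (7.28% of all tested genes). Of the other tests, limma-voom called 0 of 9 (0.487% of all tested genes), and DESeq2 called 0 of the 5 with an adjusted p-value (14.5% of all genes with one), which left out H2-DMb1. H2-Aa was at -0.09 ± 0.42 (SE), H2-Ab1 at -0.28 ± 0.51, H2-Eb1 at -0.25 ± 0.46 and Cd74 at -0.66 ± 0.60 on the log2 scale. In this fit, differences of these 4 genes were smaller than or close to their standard errors. H2-DMb1 was at -3.65 ± 1.99 (edgeR adjusted p = 0.491) and H2-DMa at 1.20 ± 1.59 (edgeR adjusted p = 0.884). Both had no overlap of the groups, which held for 3.99% of tested genes in the direction of H2-DMb1 and 3.41% in that of H2-DMa. Over the fits without 1 library, H2-DMb1 ran from -5.16 (without day 39 KO replicate 3) to -3.04 (without day 39 KO replicate 1). Cd74 ran from -1.25 to -0.40 in them, and 0 members passed in each. With only the groups compared, H2-Aa was at -0.27 ± 0.24, H2-Ab1 at -0.47 ± 0.30, H2-Eb1 at -0.41 ± 0.26 and Cd74 at -0.80 ± 0.42, and 0 members passed. In the main fit, 7 of the 9 members were below 0 with a median of -0.28, against 48.4% of tested genes and a median of 0.

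Over time in WT, 0 of 9 members passed by edgeR (0.0143% of all tested genes) and 0 had an unadjusted p under 0.05 (6.68% of all tested genes). In the other tests, limma-voom called 0 of 9 (2.42% of all tested genes), and DESeq2 called 0 of the 5 with an adjusted p-value (28.4% of all genes with one). H2-Aa was at -0.54 ± 0.46 (SE), H2-Ab1 at -0.40 ± 0.56, H2-Eb1 at -0.14 ± 0.51, Cd74 at -0.19 ± 0.66, H2-DMa at -1.82 ± 1.74 and H2-DMb1 at -1.97 ± 1.99. H2-Aa and H2-DMb1 were lower in every WT library of day 39 than in both of day 0, which held for 4.72% of tested genes. No member was higher in this way, against 12.7% of tested genes. The members' median was -0.54, with 8 of 9 below 0, against a median of 1.64 and 35% below 0 over all tested genes. Without day 0 WT replicate 2, H2-DMa was at -0.03, H2-DMb1 at -0.81, H2-Ab1 at -0.04, Cd74 at -0.04 and H2-Eb1 above 0 at 0.03. Without day 0 WT replicate 1, H2-DMa was at -2.79, H2-DMb1 at -2.78 and H2-Ab1 at -0.83, and without day 39 WT replicate 1, Cd74 was at 0.04.

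In KO over time, 0 of 9 passed by edgeR (0.157% of all tested genes), and 1 had an unadjusted p under 0.05 (H2-Ob; 18.2% of all tested genes), and DESeq2 called 0 of the 6 with an adjusted p-value (27% of all genes with one). No member's groups were free of overlap (3.21% of genes lower and 8.07% higher at day 39 were). H2-Aa was at -0.20 ± 0.42 (SE), H2-Ab1 at -0.18 ± 0.51, H2-Eb1 at 0.01 ± 0.46, Cd74 at -0.53 ± 0.59, H2-DMa at 1.01 ± 1.58 and H2-DMb1 at -3.25 ± 1.96. The members' median was -0.18, or -0.19 with genes at 0 in a group at their bound, and 5 of 9 were below 0, against 49.5% and a median of 0 over all tested genes. The 9 include H2-DMb2, which had 0 counts in every KO library and so no measured change here. Without day 0 KO replicate 1, H2-Aa (1.15), H2-Ab1 (0.73) and H2-DMb1 (0.15) turned above 0 and H2-Eb1 was at 1.06. H2-Ab1 also turned above 0 without day 39 KO replicate 1 (0.04). H2-Eb1 turned below 0 without day 0 KO replicate 2 (-0.31) or 3 (-0.34) and without day 39 KO replicate 1 (-0.04) or 2 (-0.05). Over all fits without 1 library, Cd74 ran from -1.12 to -0.03 and H2-DMa from 0.53 to 1.84. By limma-voom, 2 of 9 members were called higher at day 39, against 2.96% of all tested genes called in either direction, H2-Aa (0.81, limma-voom adjusted p = 0.00690; range over all alternatives 0.00690 to 1) and H2-Eb1 (1.16, limma-voom adjusted p = 5.08e-04; range 5.08e-04 to 1).

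**Figure D4:**
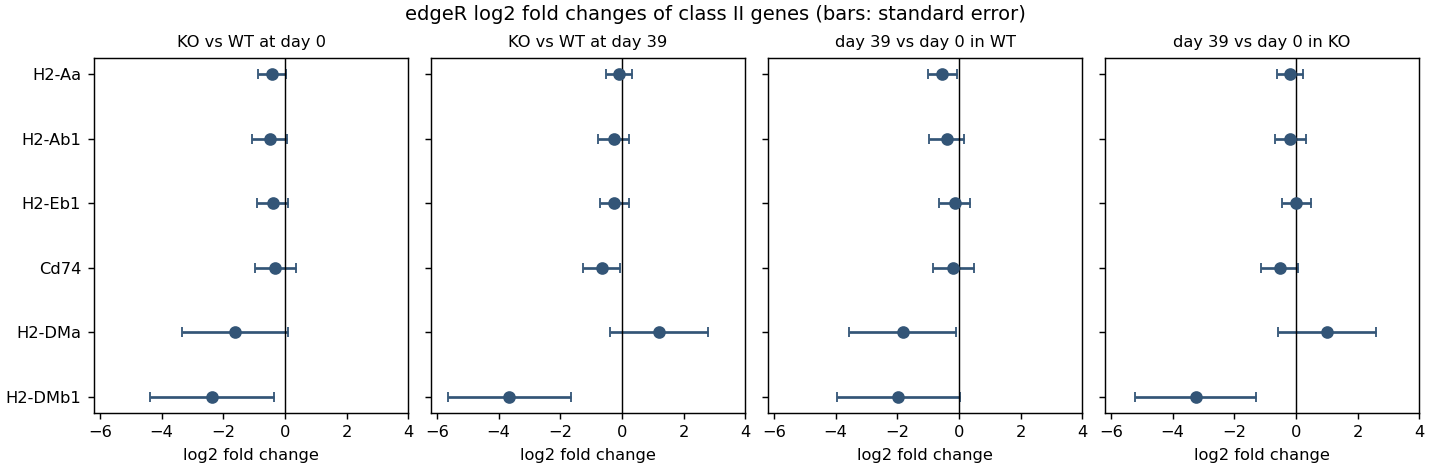
edgeR log2 fold changes (horizontal axis) with standard errors of 6 class II genes in the 4 comparisons of 2 groups; the vertical line is 0. The bars of H2-DMa and H2-DMb1 are wider than those of the other 4 genes, and at day 39 H2-DMb1 (-3.65) and H2-DMa (1.20) lie on opposite sides of 0.

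Averaged over both strain labels, day 39 against day 0 gave 0 of 9 members by edgeR (0.301% of all tested genes), 0 with an unadjusted p under 0.05 (19.2% of all tested genes), 0 of 9 by limma-voom (2.89% of all tested genes) and 0 of the 5 with an adjusted p-value by DESeq2 (29.2% of all genes with one). No member was free of overlap between the days, against 0.157% of genes lower and 1.6% higher at day 39. H2-Aa was at -0.37 ± 0.31 (SE), H2-Ab1 at -0.29 ± 0.38, H2-Eb1 at -0.06 ± 0.34, Cd74 at -0.36 ± 0.44, H2-DMa at -0.41 ± 1.17 and H2-DMb1 at -2.61 ± 1.39, the last with an edgeR adjusted p of 0.279. Of the 9 members 7 were below 0, with a median of -0.36, against 40.2% and a median of 0.76 over all tested genes. The 9 include H2-DMb2, whose average has no measured change in KO, where it had 0 counts throughout. Without day 0 KO replicate 1, H2-DMb1 was at -0.91, and H2-Aa (0.31), H2-Ab1 (0.17), H2-Eb1 (0.46) and H2-DMa (0.01) were above 0. In the test of whether the change over time depends on the strain label, 0 of 9 members passed by edgeR (0% of all tested genes) and 1 had an unadjusted p under 0.05 (H2-Ob; 14.4% of all tested genes), with DESeq2 calling 0 of the 5 with an adjusted p-value (22.5% of all genes with one). The log2 difference was 0.33 ± 0.63 (SE) for H2-Aa, 0.22 ± 0.76 for H2-Ab1, 0.16 ± 0.69 for H2-Eb1, -0.35 ± 0.89 for Cd74, 2.83 ± 2.35 for H2-DMa and -1.28 ± 2.73 for H2-DMb1. Of the members, 4 of 9 were below 0, with a median of 0.16, against 61.6% and a median of -1.69 over all tested genes. H2-DMb2 is among the 4, and with 0 counts in every KO library its sign is not a measurement. Without day 0 WT replicate 2, H2-DMa was at 0.89, H2-Ab1 at -0.30 and H2-Eb1 at -0.15. Without day 0 KO replicate 1, H2-Aa was at 1.68, H2-Ab1 at 1.12, H2-Eb1 at 1.19, H2-DMa at 3.66, H2-DMb1 at 2.12 and Cd74 at 0.15. Without day 39 KO replicate 3, H2-DMb1 was at -2.78. By limma-voom, 2 of 9 members passed, against 0.272% of all tested genes, H2-Aa (1.46, limma-voom adjusted p = 0.00228; range over all alternatives 0.00228 to 1) and H2-Eb1 (1.40, limma-voom adjusted p = 0.0444; range 0.0444 to 1). The comparisons share groups and are not independent of each other.

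The wider pathway was examined in a list of other genes, of which 29 were listed in the tables and 20 were tested. By edgeR 0 of 20 were higher and 0 lower in each of the 6 comparisons, and the number with an unadjusted p under 0.05 was 0 in both comparisons of KO with WT and over time in WT, 1 over time in KO, 2 in the averaged comparison and 1 in the difference of the time courses, where the share over all tested genes was 18.2%, 19.2% and 14.4% (and 7.99%, 7.28% and 6.68% in the comparisons with 0). Their median log2 fold change was -0.63 for KO against WT at day 0 and 0.42 at day 39.

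Among endosomal proteases, which cut antigens and the invariant chain, Ctss (cathepsin S) had 2238 to 11942 counts and Ctsb (cathepsin B) 2321 to 12267, each present in all 11 libraries. Ctss was at 1375 CPM ± 91.2 (SD, n = 2) in day 0 WT, 912 CPM ± 864 (n = 3) in day 0 KO, 1568 CPM ± 923 (n = 3) in day 39 WT and 1385 CPM ± 881 (n = 3) in day 39 KO. Of the factors of the promoter assembly, Creb1 had 0 to 2912 counts and was above 3 in 8 libraries, Nfyc (an NF-Y subunit) had 0 to 3468 and was above 3 in 3, and the RFX genes Rfx5 and Rfxank were above 3 counts in 1 library each, with Rfxap at 0 throughout. The classical genes were thus counted in all 11 libraries, and each RFX gene was at or under 3 counts in at least 10 of them. Low counts were common: the RFX genes were among the 16295 of 23282 entries that did not pass the filter on low counts.

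Upstream regulators were Spi1, which encodes the myeloid factor PU.1, and Irf1, an interferon-induced factor. Spi1 was at 292 CPM ± 306 (SD, n = 2) in day 0 WT, 256 CPM ± 401 (n = 3) in day 0 KO, 209 CPM ± 108 (n = 3) in day 39 WT and 816 CPM ± 255 (n = 3) in day 39 KO, which put KO against WT at day 39 at 1.97 ± 2.0 (log2, with SE), at an edgeR adjusted p of 0.754. Irf1 was at 509 CPM ± 391 (SD, n = 2) in day 0 WT, 30.3 CPM ± 26.3 (n = 3) in day 0 KO, 383 CPM ± 257 (n = 3) in day 39 WT and 524 CPM ± 356 (n = 3) in day 39 KO. KO against WT for Irf1 was at -4.07 ± 2.45 (log2, with SE) at day 0, at an edgeR adjusted p of 0.381, and at 0.45 ± 2.09 at day 39, at an edgeR adjusted p of 1. Day 39 against day 0 in KO was at 4.11 ± 2.37, at an edgeR adjusted p of 0.312. Of the turnover genes, Cd83, which protects surface class II from removal, had 9 to 6466 counts, and March1, the ligase that removes it, had 0 to 1478 and was above 3 in 5 libraries. The costimulatory genes Cd80 and Cd40 were above 3 counts in 1 library each. Of the remaining class II loci, H2-Ea-ps, the pseudogene form of the I-E alpha chain, was at 0 in all 11 libraries, and H2-Eb2 had at most 1 count.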

How the data were processed

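Lexogen QuantSeq libraries were made from 500 ng of Trizol-extracted RNA, per the labels' protocols, and count reads near the 3′ end. The deposited files hold raw counts per gene symbol; per the submitters' processing notes, Bowtie2 and edgeR were used and the build was hg19, a human build, although the symbols are of mouse. Annotation, strand setting and molecular identifiers are not given in the sources used here. Groups and replicate numbers come from the titles. Counts were fitted with edgeR 4.0.16 in R 4.3.3: filterByExpr kept 6987 genes, scaled by TMM, with 1 coefficient per group over all 11 libraries, robust quasi-likelihood tests (two-sided) and Benjamini-Hochberg adjustment over all tested genes at a threshold of 0.05. SE is the absolute log2 fold change over the root of the F statistic. The floor was 3 counts. The procedure was also run on simulated data, whose spread between libraries was set lower than in these data. The common biological coefficient of variation, the edgeR measure of that spread, was 2.48 here. The simulation therefore cannot show how the procedure performs on these libraries. Alternatives were other scalings, filters and samples, a replicate block, DESeq2 1.42.0 and limma-voom 3.58.1. All members are named; of each class of the pathway list, the 2 genes with the highest mean CPM are named, and others there were chosen after their values were seen. The members, lists and tests were chosen with earlier results of these data known.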

Additional observations from a re-analysis of the deposited data

How the results depend on the processing

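The number of members called stayed at 0 under all alternatives except limma-voom, which gave 3 for KO against WT at day 0, 2 over time in KO and 2 in the difference of the time courses (of 178, 207 and 19 genes in all), and the fits without 1 library, which gave 0 to 1 at day 0 (of 0 to 5 genes in all). Titles share replicate numbers between groups, but same-numbered libraries did not deviate together (correlations of -0.0137 to 0.0697 over 15 pairs, by the numbers in the titles, of which 1 differs from its file name); with the replicate block 0 members passed in each comparison, and Cd74 over time in WT (0.0188), H2-Aa over time in KO (0.0968) and H2-Eb1 in the averaged comparison (0.116) turned above 0. Mean summed CPM in WT day 0 moved to 46251 with DESeq2 size factors. H2-Eb1 over time in KO, near 0, turned below 0 with DESeq2 size factors (-0.0360), library size (-0.212), DESeq2 (-0.0360), no filter on low counts (-0.307), a filter at a mean of 10 counts (-0.112) and only the groups compared (-0.123), and its difference of the time courses with no filter (-0.0375). With limma-voom, H2-Aa (0.810), H2-Ab1 (0.707) and Cd74 (0.105) over time in KO, H2-Aa (0.0779), H2-Ab1 (0.162), H2-Eb1 (0.462) and H2-DMa (0.0806) in the averaged comparison, and H2-DMb1 (0.413) and Cd74 (0.250) in the difference of the time courses changed sign. The cause was not tested. Leaving out 1 library gave log2 values on both sides of 0 for H2-DMa at day 0 (-2.51 to 0.246), H2-Aa at day 39 (-0.307 to 0.115), H2-Eb1 (-0.410 to 0.0273) and Cd74 (-0.450 to 0.0399) over time in WT, H2-Aa (-0.679 to 1.15), H2-Ab1 (-0.526 to 0.726), H2-Eb1 (-0.340 to 1.06) and H2-DMb1 (-4.75 to 0.152) over time in KO, H2-Aa (-0.659 to 0.309), H2-Ab1 (-0.579 to 0.165), H2-Eb1 (-0.278 to 0.459) and H2-DMa (-0.961 to 0.416) averaged, and H2-Aa (-0.0401 to 1.68), H2-Ab1 (-0.298 to 1.12), H2-Eb1 (-0.177 to 1.19), H2-DMb1 (-2.78 to 2.12) and Cd74 (-0.925 to 0.148) in the difference. Of 534 fold changes under alternatives, 483 kept direction and side of the threshold. DESeq2 called 585 to 1249 of all genes in the 5 comparisons and 934 in the difference, against 1 to 21 and 0 by edgeR, and 0 members; it gave no adjusted p-value for H2-DMb1 in any comparison, and these 6 fold changes are left out. The median of all genes moved from 1.64 to 1.31 over time in WT with DESeq2 size factors, from 1.08 to 0.841 at day 0, from 0.759 to 0.593 averaged, and from 0 to -0.213 over time in KO with library size. Over the fits without 1 library it ran from 0 to 3.28 for KO against WT at day 0 and from 0.0264 to 3.89 over time in WT. Where a group lost a library down to 1, that library was assumed to vary like the others. No fold is given for H2-Oa, H2-DMb2, H2-Ob and Ciita, which were at or under 3 counts in 5 to 10 libraries; the deepest library had 0 counts of H2-Ob, and whether depth bears on these zeros was not tested.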
